A study of Homo sapiens with 16 samples.

Results

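The genes described here are the human RING finger genes named RNF and a number, other than RNF43 itself. They were taken by symbol: every protein-coding gene of GENCODE 29 whose name is RNF followed by digits and at most 1 letter, without RNF43, with the estimated counts of all its transcripts summed. This gave 84 genes of the 35075 genes with a transcript in the files. Of the 84, 75 passed the filter on low counts and were tested, among 16787 genes tested in all.

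A RING finger is a small zinc-binding fold. Most proteins that carry one are E3 ubiquitin ligases: the RING holds an E2 enzyme charged with ubiquitin beside a substrate, and the ubiquitin passes to it. RNF43 belongs to the PA-TM-RING ligases, single-pass membrane proteins with a protease-associated domain on the luminal or outer side, a transmembrane segment and a cytosolic RING. RNF43 and its closest relative ZNRF3 mark Frizzled receptors for removal and thereby dampen Wnt signalling, while RNF13, RNF128, RNF130, RNF149, RNF150 and RNF167 share the domain order and work mostly at endosomes, lysosomes and other membranes.

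The RNA came from HEK293, an established human embryonic kidney line. Its cells overexpressed GFP as the control, wild-type RNF43 (WT), or 1 of the frameshift forms R117fs and G659fs of RNF43. The 4 groups had 4 libraries each, 16 in all, with 20364357 to 46779570 estimated counts per library. RNF43 lay between 13.15 and 50.28 CPM (counts scaled to a library total of 1000000) in GFP and at 30190 CPM or more in each of the 12 libraries with an RNF43 construct, so all of them held the labelled overexpression, while the frameshifts themselves could not be checked in sums per gene. The sources used here do not say how the constructs were delivered, whether a group was 1 clone or whether replicates were separate cultures. The p-values thus reflect only how far these samples spread, and that spread may be technical.

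Of 8 genes known to be high in HEK293 cells, 7 averaged at least 1 CPM, and the list summed to 664.7 to 725 CPM per library in GFP. Its sums were 742.8 to 961.9 CPM in WT and 844.9 to 917.9 in G659fs, above GFP without overlap, and R117fs (709.7 to 817.2) overlapped with GFP. Marker lists of other cell types summed to far less. At least 1 CPM was averaged by 2 of 7 blood cell markers, 2 of 7 of gut epithelium and 3 of 7 of fibroblasts. CD3E, HBB and CDX1 were under 0.1 CPM in every library. Blood cell markers summed to 6.76 to 8.502 CPM in GFP and 4.567 to 7.653 with a construct, and those of gut epithelium to 25.73 to 27.63 and 28.42 to 37.29. Fibroblast markers summed to 43.6 to 57.95 CPM in GFP, with WT at 35.77 to 49.7, R117fs at 39.72 to 63.48 and G659fs at 55.49 to 70.66, so that WT and G659fs did not overlap. The part of these marker differences in the results was not tested. One library stood apart. In R117fs replicate 4 the 75 genes deviated from their mean over the other 3 libraries of the group with an SD of 0.405 in log2 units, while no other library exceeded 0.306. These deviations ranked with the GC content of the transcripts (Spearman's rho of 0.831 over the 75 genes, given as a description). The calls of R117fs against GFP are therefore also given without it. In bulk RNA, fewer cells that express a gene and less RNA per cell cannot be told apart.

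Levels per length were compared in TPM, a share of transcripts scaled by length, in the GFP libraries. The median of the 84 genes was 22.2 TPM: 56 stood at 10 TPM or more (66.7%, against 46.5% of the 19789 protein-coding genes in the files), 14 between 1 and 10 and 14 under 1. RNF10 stood first at 190.1 ± 19.4 TPM (SD, n = 4). It was followed by RNF40, a subunit of the ligase that attaches ubiquitin to histone H2B, at 188.2 ± 14.3. RNF187 (145.9 ± 14.4), RNF220 (119.6 ± 6.24) and RNF181 (119.1 ± 5.94) came next. These sums include transcripts annotated as noncoding. A single transcript of that kind held 65.1% of the estimated counts of RNF187 and 54.4% of those of RNF220 in GFP. RNF10 and RNF40 did not differ beyond their spread, nor did RNF220 and RNF181. RNF181 has short transcripts, so the same gene gave only 31.6 ± 1.85 CPM, below RNF220 at 96.3 ± 2.51 CPM. The 9 genes that were not tested were RNF17, RNF113B, RNF133, RNF148, RNF186, RNF212, RNF212B, RNF223 and RNF225, each under 1 TPM in GFP. RNF133 and RNF148 also belong to the PA-TM-RING ligases. Of the 75 tested genes, 71 were above the filter's 0.321 CPM in all 16 libraries. RNF39, RNF183 and RNF222 were below it in some, and RNF151 passed only in the 4 GFP libraries, so it had to differ.

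Promoters show what lies before a RefSeq start of 3 of the genes whose changes are described below. RefSeq promoters (GRCh38.p14, the 250 bases before the first listed start) were matched by symbol for 68 of the 84 genes. That start need not be the first start of the gene as counted here. For RNF111 the stretch lies inside the gene's span in GENCODE 29 (58865175 to 59097419). RNF111 and RNF24 are shown because their RNA was lower with wild-type RNF43, and RNF181 because its RNA was lower in G659fs than in R117fs. Capitals mark matches to a GC box (GGGCGG) in the first and second sequence and to a CCAAT box (CCAAT) in the last, on either strand, so that CCGCCC and ATTGG are the same motifs read from the other strand. Each runs 5′ to 3′ along its gene's strand.
RNF111, chr15:58987413-58987662, plus strand: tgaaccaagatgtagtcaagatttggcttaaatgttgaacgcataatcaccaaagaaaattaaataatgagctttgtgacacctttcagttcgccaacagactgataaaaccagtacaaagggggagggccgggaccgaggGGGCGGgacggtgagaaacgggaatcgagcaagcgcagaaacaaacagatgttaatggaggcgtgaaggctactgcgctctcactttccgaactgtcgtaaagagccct
RNF24, chr20:4015559-4015808, minus strand: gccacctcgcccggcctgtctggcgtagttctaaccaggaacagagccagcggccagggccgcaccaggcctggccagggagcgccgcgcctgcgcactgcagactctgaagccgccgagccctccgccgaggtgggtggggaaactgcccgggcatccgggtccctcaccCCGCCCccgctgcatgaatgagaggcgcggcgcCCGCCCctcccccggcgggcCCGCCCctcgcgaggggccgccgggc
RNF181, chr2:85595495-85595744, plus strand: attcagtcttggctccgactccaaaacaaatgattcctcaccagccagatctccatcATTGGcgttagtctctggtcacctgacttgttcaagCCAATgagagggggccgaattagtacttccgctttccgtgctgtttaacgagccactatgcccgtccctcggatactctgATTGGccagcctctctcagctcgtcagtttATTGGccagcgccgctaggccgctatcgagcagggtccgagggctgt
The RNF111 promoter holds 1 GC box and the RNF24 promoter 3, and neither holds a CCAAT box. The RNF181 promoter holds 4 CCAAT boxes and no GC box. A GC box was in 56.0% of 15843 promoters of coding genes and in 45 of the 68, and 19.7% of all and 15 of the 68 held at least 3. A CCAAT box was in 34.5% of all and in 27 of the 68. At least 4 of them were in 1.16% of all (183 promoters) and in 2 of the 68. The other motifs searched were TATAAA (9.23% of all, 7 of the 68), the ETS site CCGGAAG (11.8% and 9), the E-box CACGTG (7.84% and 3) and the CRE TGACGTCA (2.32% and 1). No motif's letters lie within those of another, and a match is a description of the letters, not a bound site.

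The PA-TM-RING relatives come first. With WT RNF43 none of the 6 was called changed against GFP under any alternative that was run. With R117fs and G659fs none was called by edgeR in the fit of all 16 libraries, but each of the 6 was called with at least 1 of them under some alternative, as given below. A gene was called where its adjusted p in edgeR's quasi-likelihood test, with Benjamini-Hochberg adjustment over the 16787 genes, was under 0.05. Over all genes tested, 21.5% were called with WT, 15.6% with R117fs and 25.4% with G659fs. Of the 6, 0 with WT, 2 with R117fs and 1 with G659fs had an unadjusted edgeR p under 0.05, and DESeq2's Wald test called 0, 2 and 1. All 6 were expressed in every group. In GFP, RNF167, a lysosomal and endosomal ligase, stood at 104.8 ± 6.78 TPM and RNF130, the human relative of fly goliath, at 77.6 ± 1.91. RNF13 followed at 51.6 ± 4.63, RNF149 at 27.9 ± 1.31, RNF128 (GRAIL, known from T cell anergy) at 12.4 ± 1.05 and RNF150 at 6.75 ± 0.985 TPM, and no neighbours in this order had overlapping means and SDs. Of the estimated counts of RNF130 in GFP, 66.4% lay in a transcript annotated as a target of nonsense-mediated decay.

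With WT the 6 stayed closest to GFP: their log2 fold changes lay between -0.03 (RNF167) and 0.04 (RNF150), with standard errors of 0.06 to 0.09. Their median size was 0.0352, against 0.175 over all genes tested. RNF13 was at 45.2 ± 1.84 CPM in GFP and 46.6 ± 2.01 in WT (SD, n = 4). RNF128 was at 23.5 ± 1.79 and 24.2 ± 1.81 CPM, and RNF130 at 87.2 ± 4.32 and 86.7 ± 2.06. RNF150 was at 35.5 ± 0.82 and 36.5 ± 0.58 CPM, and RNF167 at 83.1 ± 4.90 and 81.4 ± 2.13. Each of these genes overlapped between the groups. With R117fs the log2 fold changes lay between -0.20 (RNF149) and 0.15 (RNF130), and with G659fs between -0.15 (RNF13) and 0.20 (RNF150). Without R117fs replicate 4, G659fs against GFP gave -0.145 for RNF13 (edgeR adjusted p = 0.0224), 0.109 for RNF130 (0.0462), 0.122 for RNF149 (0.0442) and 0.202 for RNF150 (0.00397), values within 0.01 of those with all libraries. In the same fit R117fs against GFP called RNF150, at 0.162 (0.0438). G659fs against WT then called RNF13 (-0.186, 0.0103), RNF149 (0.144, 0.0321) and RNF150 (0.159, 0.0313). R117fs against GFP called RNF149 without R117fs replicate 1 (-0.241, 0.0378), and G659fs against GFP called RNF150 without G659fs replicate 1 (0.245, 0.0473). With the GC trend removed from each library, R117fs called RNF13 (0.193, edgeR adjusted p = 0.0128), RNF130 (0.102, 0.0493), RNF149 (-0.172, 0.0113), RNF150 (0.158, 0.0243) and RNF167 (-0.152, 0.0225). G659fs then called RNF128 (0.169, 0.0412), RNF149 (0.129, 0.0352) and RNF150 (0.24, 0.000765). DESeq2's Wald test called RNF130 (0.151, 0.0235) and RNF149 (-0.199, 0.0267) with R117fs and RNF150 (0.202, 0.0409) with G659fs. The fit of GFP and G659fs alone called RNF13 (-0.143, 0.0243), RNF149 (0.124, 0.0473) and RNF150 (0.205, 0.00794), and the offset for effective transcript length called RNF13 (-0.219, 0.0486). None of these differences reached 0.25 on the log2 scale.

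RNF149 was the one relative that edgeR called between constructs in the fit of all 16 libraries with no correction for GC or length. It was at 37.9, 39.8, 39.7 and 38.3 CPM in GFP and at 38.2, 39.1, 39.8 and 35.9 in WT. In R117fs it was at 36.7, 34.4, 35.2 and 28.4 CPM, and in G659fs at 41.0, 43.2, 43.8 and 41.0. Every R117fs library was below every GFP library and every G659fs library was above it. In the fit of all 16 libraries with no block or correction, neither difference from GFP was called (R117fs -0.20 ± 0.07 with adjusted p = 0.0606, G659fs 0.12 ± 0.07 with adjusted p = 0.228, edgeR). With the replicate number as a block the R117fs difference was called (-0.208, edgeR adjusted p = 0.0387). Between the 2 variants RNF149 was 0.33 ± 0.07 higher in G659fs on the log2 scale, 1.25-fold (edgeR adjusted p = 0.00572). That call held without each library in turn (0.256 and 0.00152 without R117fs replicate 4) and not in a fit of these 8 libraries alone (edgeR adjusted p = 0.0705). RNF13 was called lower in G659fs than in R117fs without R117fs replicate 4 (-0.261, 0.0015) and, with all libraries, under the length offset (-0.249, 0.0446), by DESeq2's Wald test (-0.196, 0.035) and after removal of the GC trend (-0.292, 0.000598). RNF130 was called higher in R117fs than in WT by DESeq2 (0.162, 0.0224) and with the GC trend removed (0.112, 0.0458). With the GC trend removed G659fs was also above WT for RNF149 (0.17, 0.0159) and RNF150 (0.203, 0.00784). The fit of WT and G659fs alone called RNF13 (-0.184, 0.00665), RNF130 (0.118, 0.0173), RNF149 (0.147, 0.0263) and RNF150 (0.162, 0.0265). That fit and the removal of the GC trend also raised the share of all genes called, as given below. Against GFP, RNF13 stood lower too: 41.5, 41.7, 40.5 and 40.0 CPM in G659fs, below each of the 4 GFP values (42.6, 46.6, 46.5 and 45.2), at -0.15 ± 0.07 (edgeR adjusted p = 0.151 with all libraries). RNF150 was higher in each G659fs library (37.1, 40.2, 43.4 and 42.4 CPM) than in each GFP library (34.6, 36.1, 36.2 and 35.0), at 0.20 ± 0.08 (edgeR adjusted p = 0.0696). ZNRF3, which is not an RNF-named gene, was at 39.4 ± 1.12 CPM in GFP and was not called against GFP: its log2 fold changes were 0.10 ± 0.06 with WT, -0.06 ± 0.06 with R117fs and 0.17 ± 0.06 with G659fs (edgeR adjusted p = 0.278, 0.547 and 0.0537).

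**Figure D1:**
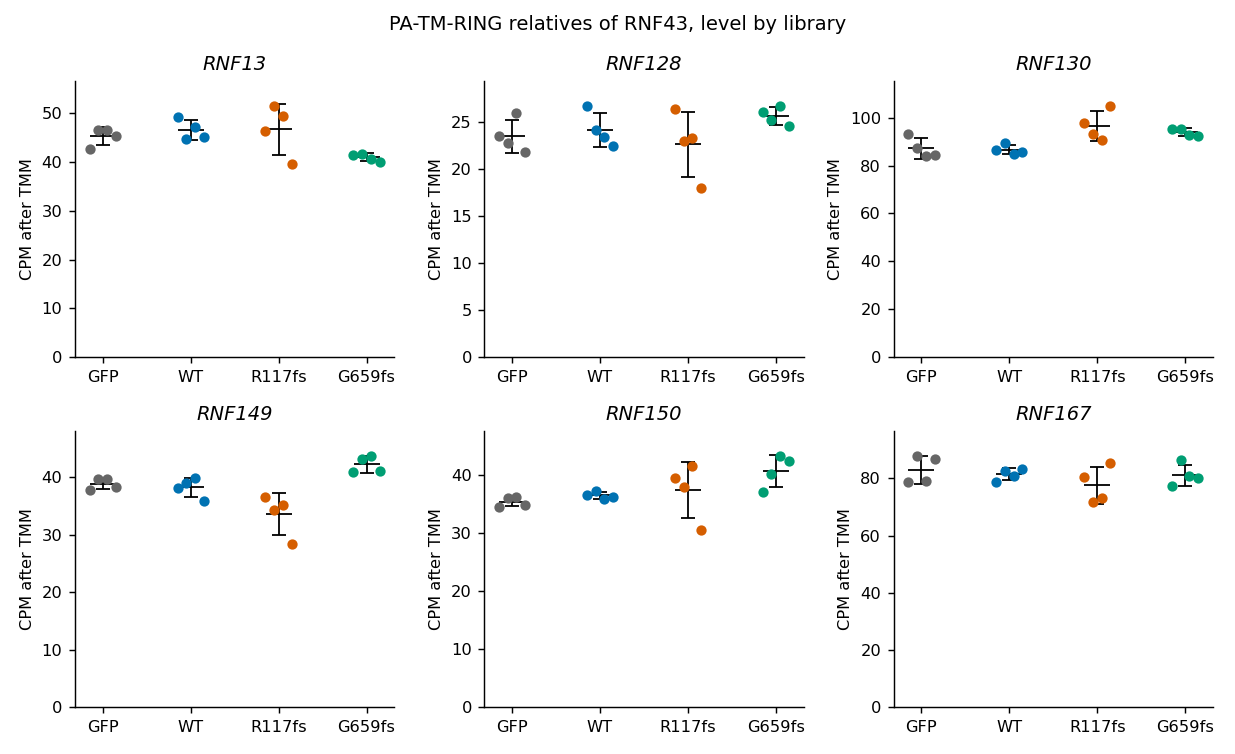
Level of the 6 PA-TM-RING relatives in each of the 16 libraries, in CPM after TMM scaling (y axis, from 0), by construct (x axis). Points are libraries and the bars give the mean ± SD of 4; the groups lie close together in each panel, R117fs replicate 4 is the lowest point of RNF128, RNF13, RNF149 and RNF150, and RNF149 is higher in G659fs (42.3 CPM) than in R117fs (33.7 CPM).

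Across the 75 tested genes, most did not pass the test with any construct. WT called 12 of them (16%, against 21.5% of all genes tested), 2 higher (9.85% of all genes) and 10 lower (11.6%). R117fs called 13 (17.3% against 15.6%), 5 higher (7.04%) and 8 lower (8.57%). G659fs called 21 (28% against 25.4%), 5 higher (11.6%) and 16 lower (13.8%). By direction, 2.67% of the members were called higher and 13.3% lower with WT, 6.67% and 10.7% with R117fs, and 6.67% and 21.3% with G659fs. In each of these 3 comparisons with GFP more members were called lower than higher, and the same held for all genes tested. The median log2 fold change of the 75 was -0.03 with WT, -0.02 with R117fs and -0.03 with G659fs, against 0.00, -0.01 and 0.00 for all genes tested, and the median size was 0.127, 0.13 and 0.163 against 0.175, 0.162 and 0.184. With any construct 30 genes were called (38.5% of all genes tested), 45 with none, and none was higher with 1 construct and lower with another. The 3 comparisons share the GFP libraries. Leaving out 1 library moved the counts. WT called 21 without R117fs replicate 4 (36% of all genes in that fit) and 8 without GFP replicate 4 (13.1%). G659fs called 38 without R117fs replicate 4 (39.4% of all genes), 12 without GFP replicate 4 (18%) and 13 without G659fs replicate 3 (19%). R117fs called 16 without R117fs replicate 4 (21.7%). The share of all genes moved in the same direction as the members' count in each of these fits.

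By role the lists are small, and their counts stand beside the 9.85%, 7.04% and 11.6% of all genes called higher and the 11.6%, 8.57% and 13.8% called lower with WT, R117fs and G659fs. The RING-between-RING ligases, which take ubiquitin onto a cysteine of their own before passing it on, had 0 of 8 called with WT and with R117fs and 3 lower with G659fs. Ligases anchored in the ER, lysosome or other membranes had 1 higher and 1 lower of 14 tested with WT, 1 and 2 with R117fs, and 2 and 2 with G659fs. Ligases of chromatin, DNA repair and the SUMO pathway had 0 higher and 1, 2 and 3 lower of 10 tested with WT, R117fs and G659fs. Ligases of cytosolic signalling and endosomal sorting had 1 higher and 3 lower of 19 with WT, 4 and 3 with R117fs, and 3 and 4 with G659fs. The other 18 tested genes had 0 higher and 5, 1 and 4 lower. For the RING-between-RING genes, 3 with WT and 2 with R117fs had an unadjusted edgeR p under 0.05, and DESeq2's Wald test called 2 and 0.

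**Figure D2:**
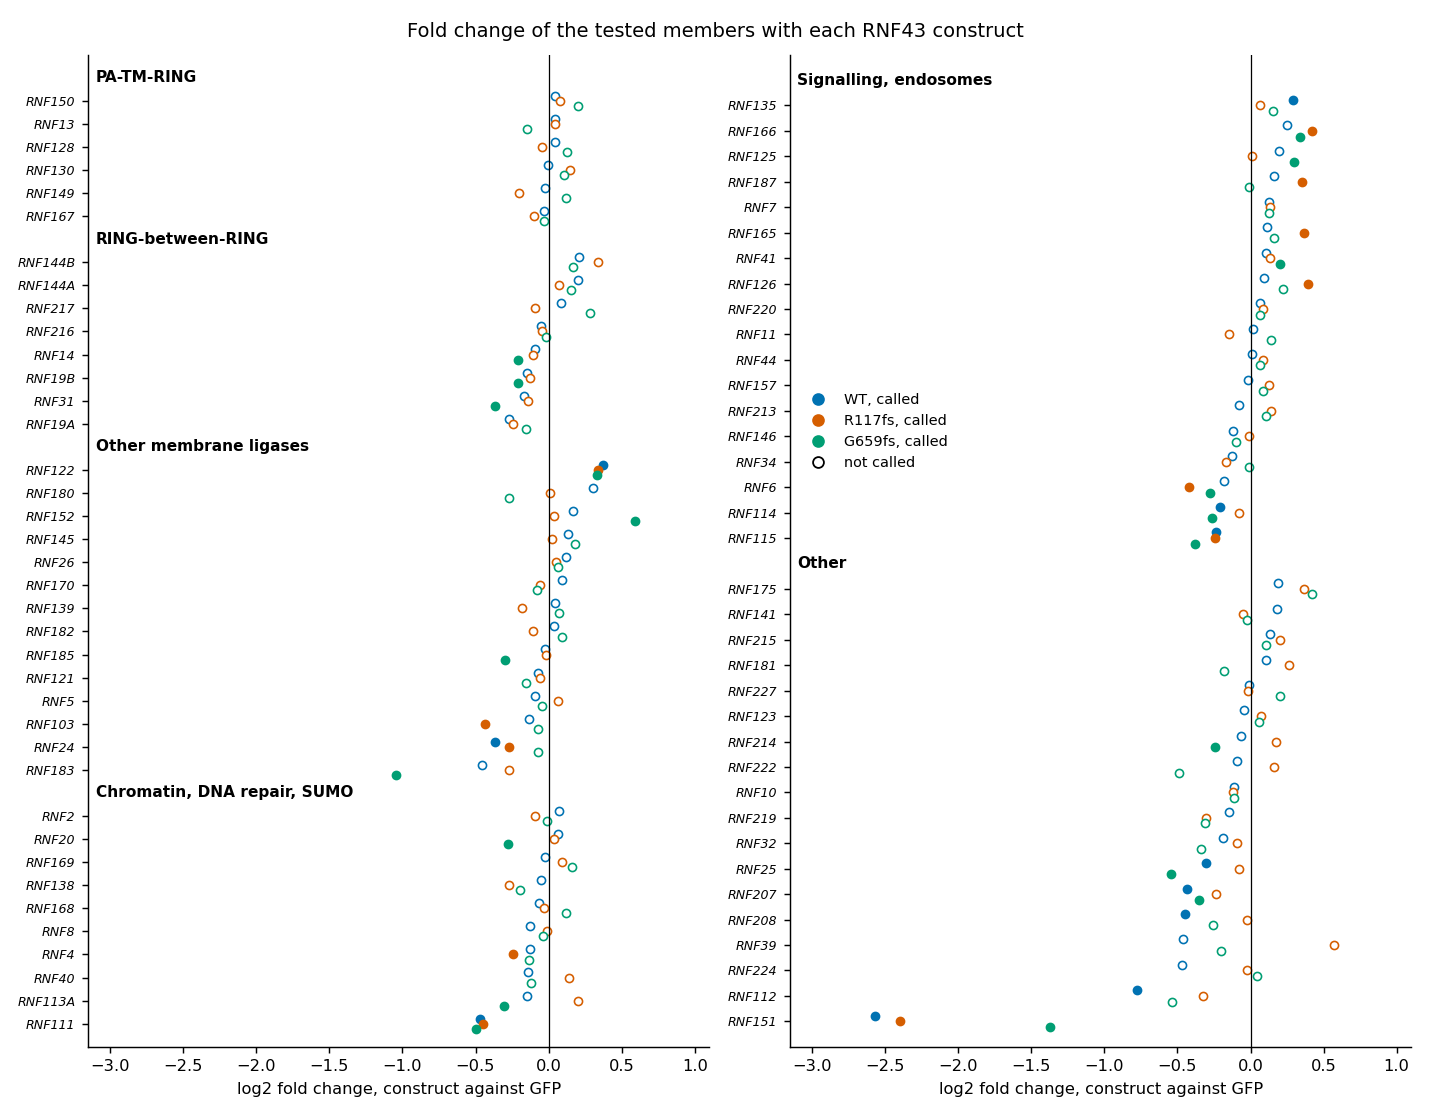
Log2 fold change of the tested genes with each RNF43 construct against GFP (x axis), ordered by role (y axis). Filled points passed edgeR's test at an adjusted p under 0.05 and open points did not; the 6 PA-TM-RING genes are open and lie between -0.20 and 0.20, while RNF111, RNF115 and RNF151 are filled to the left of 0 and RNF122 to the right with all 3 constructs.

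Genes called in 1 direction with all 3 constructs included RNF111, RNF115, RNF151 and RNF122. Over all genes tested, 4.4% were called lower with all 3, as the first 3 of these were, and 2.15% higher, as RNF122 was. RNF111 is Arkadia, a SUMO-directed ligase that removes the repressors SKI and SNON in TGF-beta signalling (ENSG00000157450; chromosome 15, 58865175 to 59097419, plus strand). It was at 36.4, 41.3, 39.8 and 46.2 CPM in GFP and at 27.9, 28.4, 30.8 and 31.3 in WT. In R117fs it was at 29.5, 34.4, 32.5 and 23.3, and in G659fs at 29.4, 28.9, 28.5 and 29.4. No library with an RNF43 construct reached the lowest GFP library. The fall was 0.47 ± 0.10 on the log2 scale with WT (1.38-fold, edgeR adjusted p = 0.00227), 0.45 ± 0.10 with R117fs (0.00528) and 0.50 ± 0.10 with G659fs (0.00124). The WT and G659fs calls held under every alternative that was run. The R117fs call was lost with an offset for effective transcript length (edgeR adjusted p = 0.0685) and with the 8 libraries alone (0.0754).

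RNF115, an endosomal ligase that acts on EGFR traffic (ENSG00000265491; chromosome 1, 145738868 to 145824077, minus strand), was at 59.9, 61.5, 64.4 and 66.8 CPM in GFP. It was at 53.7, 50.9, 56.7 and 53.4 in WT, at 53.2, 55.6, 53.1 and 51.0 in R117fs, and at 52.4, 47.0, 48.0 and 47.1 in G659fs. Again no construct library overlapped with GFP. The fall was 0.24 ± 0.06 with WT (edgeR adjusted p = 0.0097), 0.25 ± 0.06 with R117fs (0.0109) and 0.38 ± 0.06 with G659fs (0.000246). The G659fs call held under every alternative. The WT call was lost with the length offset (0.147). The R117fs call was lost when the GC trend was removed (0.066) and in the 8-library fit (0.111).

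RNF122, a membrane ligase of the ER and Golgi, was the member that rose with all 3 constructs (ENSG00000133874; chromosome 8, 33547755 to 33567125, minus strand). Its libraries were at 13.4, 12.3, 11 and 12.2 CPM in GFP and at 14.9, 17.9, 14.7 and 15.7 in WT. They were at 14.9, 15.5, 15.7 and 15.8 in R117fs and at 15.8, 15.7, 14.8 and 15 in G659fs, each above the highest GFP library. The rise was 0.37 ± 0.08 with WT (1.29-fold, edgeR adjusted p = 0.00268), 0.34 ± 0.08 with R117fs (1.26-fold, 0.00891) and 0.33 ± 0.08 with G659fs (1.26-fold, 0.00556). In the fit of GFP and R117fs alone the second was not called (0.0754).

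RNF151, a gene known from testis, was at the edge of detection (ENSG00000179580; chromosome 16, 1966823 to 1968975, plus strand). It had 11, 16, 13 and 18 estimated counts in the GFP libraries. It had 1, 6, 0 and 5 in WT, 7, 3, 0 and 1 in R117fs, and 6, 10, 9 and 3 in G659fs. Its mean was 0.519 ± 0.132 CPM in GFP. The means with a construct were 0.0816 ± 0.0792 (WT), 0.0767 ± 0.0738 (R117fs) and 0.191 ± 0.0597 CPM (G659fs). The groups with a construct lay below GFP without overlap, and edgeR called all 3 falls (adjusted p = 0.00102, 0.00339 and 0.0171). The last was lost without GFP replicate 4 (0.0622). The gene entered the test only through its GFP libraries, so these calls are a description.

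**Figure D3:**
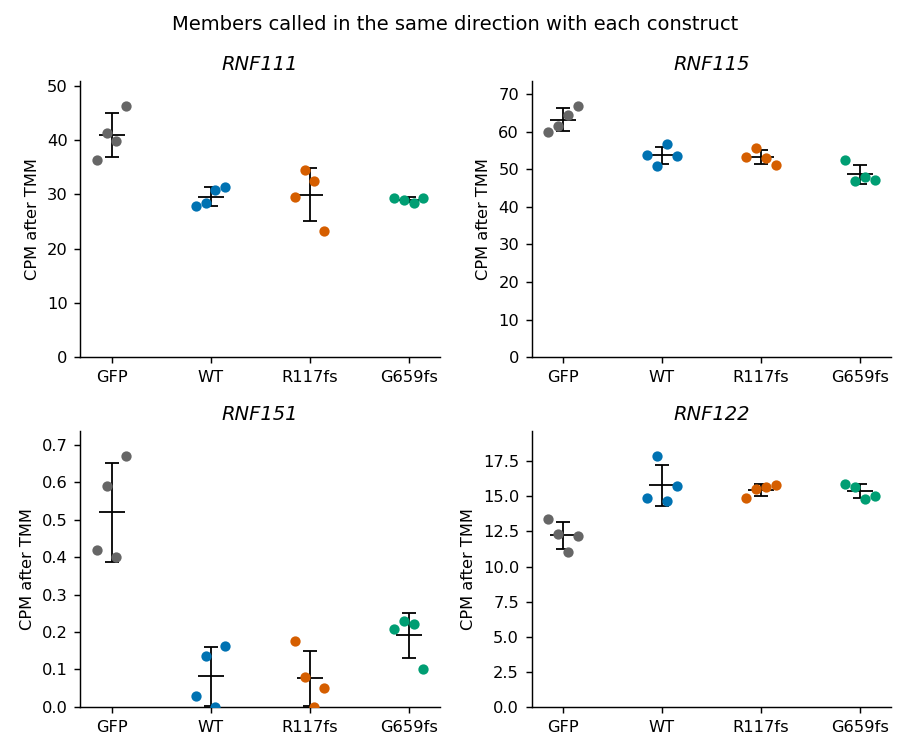
Level in each of the 16 libraries of RNF111, RNF115, RNF151 and RNF122, each called in the same direction with all 3 constructs, in CPM after TMM scaling (y axis, from 0), by construct (x axis), with the mean ± SD of 4 libraries. RNF111, RNF115 and RNF151 are higher in every GFP library than in any construct library, RNF122 is lower in every GFP library, and RNF151 stays under 0.7 CPM throughout.

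With WT against GFP, the groups of 4 libraries did not overlap for 21 of the 75 genes, 8 higher and 13 lower (33.8% over all genes tested). Besides genes called with all 3 constructs, RNF135 was called higher and RNF24, RNF25, RNF112, RNF114, RNF207 and RNF208 were called lower. RNF24 is a membrane ligase of the Golgi (ENSG00000101236; chromosome 20, 3927309 to 4015582, minus strand). It was at 32.6, 38.6, 35.3 and 42.6 CPM in GFP and at 27.7, 27.6, 29.7 and 30.4 in WT, so no WT library reached GFP, and it fell by 0.37 ± 0.08 (1.29-fold, edgeR adjusted p = 0.0032). RNF24 was lower in R117fs too, at 28.2, 31.4, 33.5 and 31.0 CPM and -0.27 ± 0.08 (0.0309), where 1 of the 4 libraries lay within the GFP range. In G659fs it was at 33.5, 35.2, 35.9 and 37.2 CPM, inside the GFP range (-0.07 ± 0.08, edgeR adjusted p = 0.545). The direct comparison put G659fs above WT by 0.30 ± 0.08 (1.23-fold, edgeR adjusted p = 0.0375), without overlap. The WT fall held under every alternative that was run. The R117fs call depended on GFP replicates 2 (0.0866 without it) and 4 (0.128), on R117fs replicates 1 (0.0923) and 2 (0.0522), on the filter (0.0656 without it) and on the other groups (0.171 in the 8-library fit). The call between G659fs and WT was lost without any 1 of 7 libraries (0.0643 to 0.126), all 4 of WT and G659fs replicates 2, 3 and 4, with the length offset (0.0971) and without the filter (0.0515).

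RNF25, a ligase that acts on stalled ribosomes, was at 37.8, 36.6, 32.7 and 38.0 CPM in GFP, 29.9, 29, 29.5 and 28.9 in WT and 25.4, 25.5, 23.7 and 25.1 in G659fs (ENSG00000163481; chromosome 2, 218663864 to 218672411, minus strand). The 3 groups did not overlap with each other. In R117fs it spread from 29.4 to 42.3 CPM, with replicate 4 the highest. RNF25 fell by 0.31 ± 0.09 with WT (edgeR adjusted p = 0.019, and 0.0534 without GFP replicate 4) and by 0.54 ± 0.09 with G659fs (1.46-fold, 0.00032). Between G659fs and WT the log2 difference of -0.23 ± 0.09 was not called (0.122). RNF135 is Riplet, which activates the RNA sensor RIG-I. It was at 11.7 ± 0.66 CPM in GFP and 14.3 ± 0.524 in WT, without overlap, and rose 1.22-fold (edgeR adjusted p = 0.0125, but 0.0526 without GFP replicate 2 and 0.437 with the length offset).

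RNF112, known from the nervous system, was low at 2.42 ± 0.65 CPM in GFP and 1.42 ± 0.271 in WT (1.71-fold lower, edgeR adjusted p = 0.0158). RNF208 was at 12.7 ± 0.795 and 9.28 ± 0.56 CPM (1.37-fold lower, 0.0223), RNF207, a regulator of the cardiac HERG channel, at 9.52 ± 1.19 and 7.03 ± 0.73 (1.35-fold, 0.0128), and RNF114 at 94.1 ± 5.78 and 81.4 ± 1.94 (1.16-fold, 0.018). Of these, RNF207 overlapped between the groups in CPM and the others did not. Without GFP replicate 4 the edgeR adjusted p was 0.0749 for RNF112, 0.0532 for RNF208 and 0.0678 for RNF114. RNF112 was also lost without WT replicate 3 (0.0534), RNF208 without WT replicate 2 (0.0658) or 3 (0.0503), and RNF114 without GFP replicate 2 (0.0524) or without the filter (0.0553). With the length offset RNF112 (0.0579), RNF207 (0.176) and RNF114 (0.774) were not called.

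R117fs called RNF166, RNF126, RNF165 and RNF187 higher beside RNF122, and RNF103, RNF6, RNF24 and RNF4 lower beside genes that fell with all constructs. The groups did not overlap for 15 of the 75 genes, 7 higher and 8 lower (16.5% over all genes). RNF4 and RNF111 both act on SUMO-modified proteins. RNF4 was at 51.5, 56.6, 51.3 and 55.7 CPM in GFP and at 46.6, 43.7, 45.1 and 46.0 in R117fs, with no overlap and with replicate 4 inside its group. It fell by 0.25 ± 0.06 (edgeR adjusted p = 0.00808, and 0.0771 with the length offset). RNF6 was at 46.2, 48.0, 42.0 and 45.2 CPM in GFP and 35.9, 37.0, 34.9 and 27.2 in R117fs, and it fell by 0.42 ± 0.08 (1.34-fold, 0.00204). RNF103, a ligase of the ER membrane that was at 28.4, 32.2, 32.4 and 33.2 CPM in GFP, was at 25.5, 23.6, 25.1 and 18.9 in R117fs (-0.43 ± 0.08, 0.00237). It shares exons with the readthrough gene RNF103-CHMP3, which averaged 55.57 estimated counts, so a part of its reads was divided by estimation. Without R117fs replicate 4 the fall was 0.349 for RNF111 (edgeR adjusted p = 0.00202), 0.351 for RNF103 (0.000585), 0.332 for RNF6 (0.000212), 0.27 for RNF24 (0.0198), 0.251 for RNF4 (0.00178) and 0.226 for RNF115 (0.00543). RNF151 was then at -2.27 (0.00445), and RNF122 was 0.329 higher (0.0069). In the fit of GFP and R117fs alone RNF103 (0.0536), RNF6 (0.0538) and RNF4 (0.114) were not called.

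The 4 genes called higher in R117fs beside RNF122 had transcripts of 52.6% (RNF165) to 65.2% (RNF126) GC. R117fs replicate 4 was the highest library for each of the 4. RNF166 was at 41.8, 41.1, 39.0 and 59.5 CPM in R117fs against 33.8 ± 2.67 in GFP (0.42 ± 0.10, edgeR adjusted p = 0.011). RNF126, which acts with BAG6 on mislocalised proteins, was at 122, 127, 113 and 181 CPM against 103 ± 7.17 (0.39 ± 0.11, 0.0185). RNF165 was at 9.91, 9.76, 9.53 and 13.1 CPM against 8.13 ± 0.917 (0.36 ± 0.11, 0.0307). RNF187, a coactivator of AP-1, was at 346, 288, 270 and 407 CPM against 257 ± 30.1 (0.35 ± 0.11, 0.0385), with overlap between the groups. Without R117fs replicate 4, RNF165 (0.0542) and RNF187 (0.101) were no longer called, while RNF166 (0.27, 0.00279) and RNF126 (0.23, 0.00695) were. RNF165 (0.207) and RNF187 (0.0599) were also lost with the length offset. RNF126 was lost without GFP replicate 3 (0.0547) or 4 (0.0568), RNF165 without GFP replicate 1 (0.0649), 2 (0.0981) or 4 (0.0571), and RNF187 without GFP replicate 2 (0.0921), 3 (0.0576) or 4 (0.128), R117fs replicate 1 (0.0673) or G659fs replicate 4 (0.0505). With the GC trend removed from each library all 4 were called, at 0.311 for RNF166 (5.66e-05), 0.245 for RNF126 (9.45e-05), 0.337 for RNF165 (0.0122) and 0.266 for RNF187 (0.0312). In a fit of GFP and R117fs alone 2 members were called, RNF151 among them.

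**Figure D4:**
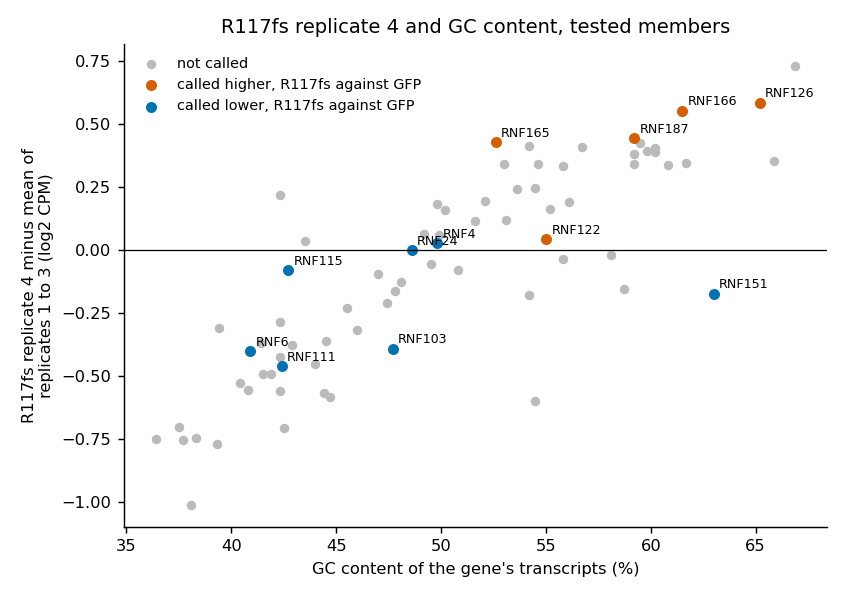
R117fs replicate 4 minus the mean of R117fs replicates 1 to 3 in log2 CPM (y axis) against the GC content of each gene's transcripts in percent (x axis), for the tested genes. Coloured points were called with R117fs against GFP. RNF126, RNF166 and RNF187 lie at high GC and above 0, and RNF165 lies above 0 at 52.6% GC. RNF111 and RNF6 lie at low GC and below 0, and RNF103 at 47.7% GC and below 0. RNF4, RNF24 and RNF122 (55% GC) lie near 0. RNF115, at 42.7% GC, is at -0.0814, and RNF151, at 63% GC and called lower, is at -0.174.

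G659fs had the most calls. The groups did not overlap for 35 of the 75 genes, 12 higher and 23 lower (37.9% over all genes). Besides RNF122 the genes called higher were RNF152, RNF166, RNF125 and RNF41. RNF152 is a lysosomal ligase of the RagA GTPase in nutrient sensing (ENSG00000176641; chromosome 18, 61808063 to 61894247, minus strand). It was at 9.88, 10.6, 9.99 and 10.8 CPM in GFP and at 14.5, 16.3, 16.7 and 14.6 in G659fs. In WT it was at 10.2, 11.4, 11.1 and 13.6 CPM and in R117fs at 11.2, 11.8, 11.8 and 7.09, so every G659fs library was above every other library. RNF152 rose by 0.59 ± 0.12 against GFP (1.51-fold, edgeR adjusted p = 0.00194), the largest rise of a member called with any construct. It was 0.43 ± 0.12 above WT (0.0428) and 0.55 ± 0.12 above R117fs (0.00609). With the length offset none of the 3 was called (0.111, 0.292 and 0.205), the last was at 0.0552 in the fit of its 8 libraries, and the call against WT was lost without any 1 of 11 libraries (0.0502 to 0.155), namely those of GFP and G659fs and WT replicates 1, 2 and 3.

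RNF166 was at 33.8 ± 2.67 CPM in GFP and 42.7, 43.8, 40.5 and 44.0 in G659fs (0.34 ± 0.10, edgeR adjusted p = 0.0213), without overlap. RNF41, which removes the receptor ERBB3, was at 65.5 ± 2.07 and 75.1 ± 2.30 CPM (0.20 ± 0.06, 0.0221). RNF125, which ends RIG-I signalling, was at 25.7 ± 1.53 and 31.5 ± 1.53 CPM (0.30 ± 0.11, 0.0471). These 3 calls were near the threshold. RNF166 was lost without G659fs replicate 2 (0.0527) or 4 (0.052) and GFP replicate 3 (0.0565) or 4 (0.0604), and RNF41 without G659fs replicate 1 (0.0522) or 3 (0.0635) and GFP replicate 4 (0.0644). RNF125 was lost without any 1 of 12 libraries (0.0501 to 0.121), all but WT replicate 2 and R117fs replicates 2, 3 and 4.

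Among the 16 genes called lower in G659fs, RNF185 was at 90.4, 89.5, 82.8 and 86.4 CPM in GFP and at 76.7, 68.7, 70.5 and 68.4 in G659fs. RNF185 is a ligase of ER-associated degradation (ENSG00000138942; chromosome 22, 31160183 to 31207019, plus strand). In WT (85.9 ± 8.41 CPM) and R117fs (86.4 ± 3.74) it stood at the GFP level. The fall with G659fs was 0.30 ± 0.07 (1.23-fold, edgeR adjusted p = 0.00506) and held under every alternative. It was also below WT, by 0.27 ± 0.07 (0.0316), a call lost without WT replicate 1, 3 or 4 and G659fs replicate 2, 3 or 4 (0.0609 to 0.137) and without the filter (0.0627). RNF31 is HOIP, which builds linear ubiquitin chains. It was at 41.8 ± 4.73 CPM in GFP and 32.3 ± 0.745 in G659fs (0.37 ± 0.11 lower, 0.0226), without overlap. RNF113A, a splicing factor, was at 38.1 ± 4.20 and 30.8 ± 2.14 CPM (1.24-fold lower, 0.035), and RNF207 at 9.52 ± 1.19 and 7.44 ± 0.434 (1.28-fold lower, 0.0326).

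RNF183, a ligase known from kidney, was low, at 0.467 ± 0.0376 CPM in GFP and 0.226 ± 0.0897 in G659fs (2.07-fold lower, edgeR adjusted p = 0.0246). It was above the filter in all 4 GFP libraries and in 1 of G659fs, and DESeq2's Wald test gave it an adjusted p of 0.0516. RNF183 was lost without G659fs replicate 1 (0.0655) or 3 (0.08) or GFP replicate 3 (0.073). RNF31 was lost without G659fs replicate 2 (0.0535) or 3 (0.0558) or GFP replicate 1 (0.059) or 4 (0.07). RNF113A was lost without G659fs replicate 1 (0.0801), 2 (0.0557) or 3 (0.11) or GFP replicate 2 (0.0963) or 4 (0.123), and RNF207 without G659fs replicate 1, 3 or 4 or GFP replicate 1, 3 or 4 (0.058 to 0.115). With the length offset RNF183 (0.0796), RNF31 (0.0838), RNF207 (0.473), RNF125 (0.102) and RNF41 (0.0678) were not called, and without the filter RNF113A (0.0537) and RNF207 (0.0573) were not.

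The constructs were then compared with each other, which asks where a frameshift variant differs from wild-type RNF43 and from the other variant. R117fs and WT differed in 4 of the 75 genes (8.11% of all genes tested), 3 higher (4.5%) and 1 lower (3.62%). RNF113A (0.35 ± 0.10), RNF40 (0.28 ± 0.08) and RNF214 (0.24 ± 0.06) were higher in R117fs, and RNF103 was lower (-0.30 ± 0.08), with edgeR adjusted p from 0.0231 to 0.0434. None of the 4 was called in a fit of these 8 libraries alone. RNF214 was lost without WT replicate 2 (0.0638) or 3 (0.0628). RNF113A, RNF40 and RNF103 were lost without any 1 of 11, 8 and 10 libraries, each WT library among them, and RNF113A also without R117fs replicate 4 (0.0797). RNF113A (0.0757) and RNF103 (0.193) were lost with the length offset too, and RNF103 without the filter (0.0735). G659fs and WT differed in 4 genes too (5.68% of all genes). RNF152 and RNF24, given above, were higher in G659fs (2.32% of all genes), and RNF185 and RNF20 were lower (3.35%). RNF20, the partner of RNF40 in the histone H2B ligase, was at 81.2, 65.7, 73.5 and 74.3 CPM in WT and at 63.7, 56.6, 56.2 and 56.6 in G659fs (-0.34 ± 0.08, edgeR adjusted p = 0.0205). It was lost without WT replicate 1, 3 or 4 or G659fs replicate 2, 3 or 4 (0.0555 to 0.0944) and with the length offset (0.0613).

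G659fs and R117fs differed in 14 genes (18.7%, against 14.4% of all genes tested), 5 higher in G659fs (6.35% of all genes) and 9 lower (8.02%). The groups did not overlap for 13 of the 75 (18.1% of all genes). RNF214 showed the smallest adjusted p (ENSG00000167257; chromosome 11, 117232625 to 117286445, plus strand). It was at 39.4, 38.1, 36.6 and 39.8 CPM in R117fs and at 27.7, 28.7, 28.0 and 30.8 in G659fs, with GFP (34.1 ± 1.83) and WT (32.5 ± 1.40) between them. The difference was -0.42 ± 0.06 (1.34-fold, edgeR adjusted p = 0.000362). RNF181 was at 35.5, 35.4, 34.5 and 46.7 CPM in R117fs and 27.7, 28.0, 26.5 and 29.2 in G659fs (1.36-fold lower in G659fs, 0.00281). Its GFP libraries were at 32.0, 33.2, 32.3 and 28.9 CPM, and neither variant was called against GFP (R117fs 0.26 ± 0.09 with 0.0503, G659fs -0.18 ± 0.09 with 0.139).

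RNF113A was at 35.5, 41.7, 49.1 and 49.5 CPM in R117fs and at 30.1, 32.2, 28.2 and 32.9 in G659fs, a log2 difference of -0.51 ± 0.10 (1.42-fold, edgeR adjusted p = 0.00337). RNF25, with R117fs between 29.4 and 42.3 CPM and G659fs between 23.7 and 25.5, differed by -0.46 ± 0.09 (0.00239). The calls of RNF214, RNF181, RNF113A and RNF25 held under every alternative that was run, among them the removal of R117fs replicate 4. RNF187 was the fifth largest among those lower in G659fs (-0.36 ± 0.11, 0.0353), and it was lost without R117fs replicate 1 (0.0609) or 4 (0.0829) or G659fs replicate 2 (0.0926), 3 (0.106) or 4 (0.075). Higher in G659fs, besides RNF152 and RNF149, were RNF217 (0.37 ± 0.11, 0.0338), RNF103 (0.36 ± 0.08, 0.00815) and RNF11 (0.29 ± 0.09, 0.047). RNF217, which removes the iron exporter ferroportin, was at 43.7, 43.3, 43.5 and 25.8 CPM in R117fs and at 51.7, 48.1, 52.8 and 50.8 in G659fs. Its log2 difference was -0.02 (0.943) with the length offset, and the call was lost without any 1 of G659fs replicates 1 to 4 or WT replicates 3 and 4 (0.0509 to 0.0932). RNF11 was lost without any 1 of 13 libraries (0.0512 to 0.141) and without the filter (0.07). The length offset also ended the calls of RNF103 (0.0966), RNF11 (0.061) and RNF187 (0.0553). In the fit of these 8 libraries alone 5 members were called, RNF214, RNF181, RNF113A and RNF25 among them, and RNF103 was at 0.07 and RNF187 at 0.109.

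**Figure D5:**
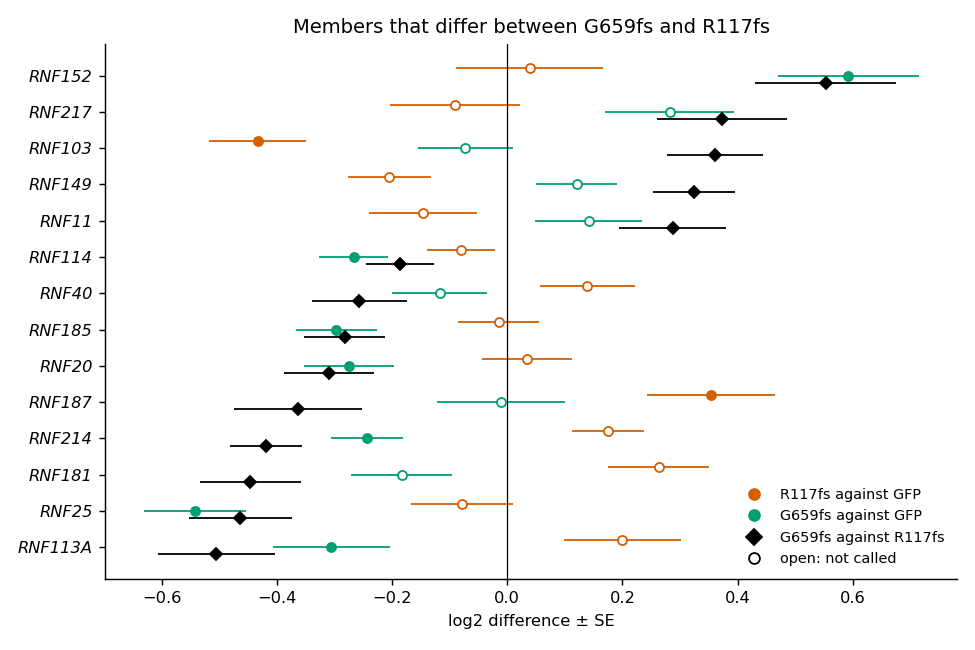
Log2 differences ± SE of the 14 genes called between G659fs and R117fs (black diamonds), with the log2 fold change of each variant against GFP beside them (orange R117fs, green G659fs; filled where called). RNF214, RNF181 and RNF113A lie to the right of 0 with R117fs and to the left with G659fs, RNF152 lies near 0 with R117fs and at 0.59 with G659fs, and the fold changes of both variants share the GFP libraries.

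The transcripts behind a gene's sum were also compared, as shares of its estimated counts and with no test. In RNF126 the transcript ENST00000292363 held 61.8% ± 3.42 in GFP (SD, n = 4) and 64.5% ± 6.60 in R117fs, and 70.6% ± 3.33 in WT and 73.7% ± 4.15 in G659fs. Its highest GFP library (66.5%) was below the lowest WT (66.9%) and G659fs (67.7%) libraries. Transcripts of other members separated too, such as ENST00000244061 of RNF114 (83.4% to 86.8% in GFP, 78% to 81.7% in WT). How many did so was not counted. In RNF111 the transcript ENST00000561186 held 39.7% ± 12.5 in GFP and 53.8% ± 6.62 in G659fs, with overlap. In RNF24 a single transcript, ENST00000336095, held 96.4% to 97.2% in the 4 groups, and in RNF115 ENST00000582693 held 89.7% to 92.8%. RNF217 had 60.3% to 92.6% of its counts in ENST00000521654 over the R117fs libraries and 89.9% to 93.2% in G659fs.

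Lists of genes around the RNF-named ligases give the setting. Of 22 tested membrane RING ligases with other names, 1 was called lower with WT (4.55%, against 21.5% of all genes). It was MARCH7 (-0.39 ± 0.14, edgeR adjusted p = 0.0478). That call was lost without any 1 of the 4 WT libraries (0.0857 to 0.107), with the replicate block (0.0542) and without the filter (0.091). Whether each protein of this list is anchored in a membrane was not checked here. With R117fs 1 was called higher and 3 lower (18.2% against 15.6%), and with G659fs 1 and 2 (13.6% against 25.4%). The 3 lower in R117fs were MARCH7 (-0.53 ± 0.14, edgeR adjusted p = 0.0138), RNFT1 (-0.36 ± 0.10, 0.0219) and BFAR (-0.21 ± 0.06, 0.0347). MARCH7 was lost without GFP replicate 2 (0.0518) or 4 (0.0609) and in the 8-library fit (0.119). RNFT1 and BFAR were lost in the 8-library fit and with the length offset, and their other alternatives are not given here. SYVN1, the HRD1 ligase of ER-associated degradation, was at 82.9 ± 4.26 CPM in GFP and 0.48 ± 0.09 higher in R117fs (edgeR adjusted p = 0.0017), a call that held under every alternative. ZNRF3 was 0.23 ± 0.06 higher in G659fs than in R117fs (0.0193), in the direction of RNF149. It was lost with the length offset (0.221), in the 8-library fit (0.162) and without G659fs replicate 3 (0.0544) or 4 (0.0657) or R117fs replicate 2 (0.0659). Of 25 E1 and E2 enzymes, which supply the RING ligases with ubiquitin, 3 were called higher and 3 lower with WT, 1 and 6 with R117fs, and 1 and 4 with G659fs, which is 24%, 28% and 20% called against 21.5%, 15.6% and 25.4% of all genes. UBE2A, an E2 of the RNF20 and RNF40 ligase, was at 111.9 ± 5.85 CPM in GFP. It was 0.54 ± 0.09 lower with R117fs (0.000585) and 0.52 ± 0.09 lower with G659fs (0.000396), and both calls held under every alternative. With WT it was not called (-0.22, edgeR adjusted p = 0.0788). The E2 genes UBE2H and UBE2J2 were called lower with all 3 constructs. With WT, R117fs and G659fs UBE2H was at -0.50, -0.36 and -0.50 (0.000285, 0.00593 and 0.000247). UBE2J2 was at -0.345, -0.337 and -0.336 (0.0172, 0.0263 and 0.0171). The R117fs call of UBE2H was lost with the length offset (0.255) and in the 8-library fit (0.089). That of UBE2J2 was lost in the 8-library fit too, and the other alternatives for UBE2J2 are not given here. SYVN1, MARCH7, RNFT1, BFAR, ZNRF3, UBE2A, UBE2H and UBE2J2 were named after their values were seen.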

How the data were processed

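RNA was sequenced from 16 HEK293 libraries. Per the submitters' processing notes, the authors used kallisto 0.45.1 and GRCh38. The sources used here do not give the annotation release, strand or run options. The files deposited by the authors gave an estimated count and a TPM value (scaled by effective length, per the file headers) for each of 178136 transcripts. Of these 162453 (91.2%) matched GENCODE 29 by identifier, 89.55% with the same version; the rest held 1.904% to 2.216% of counts and were left out. TPM values were summed per gene to describe levels. Estimated counts were summed per gene, rounded and filtered (filterByExpr: at least 10 counts, here 0.321 CPM, in 4 libraries).

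Groups were compared with edgeR 4.0.16 in R 4.3.3 (TMM, robust dispersions, glmQLFit, glmQLFTest), in 1 fit of all 16 libraries, with 6 comparisons and adjustment over 16787 genes. In libraries of 20364357 to 46779570 counts the common biological coefficient of variation was 0.103. On counts simulated for WT against GFP over 16576 genes, known changes were put into a small set of well-counted genes only. Of these, 77% of 1.5-fold and 96% of 2-fold changes were recovered, and 6.49% of the calls were false. Changes in genes of low count, smaller folds and a library with a GC trend were not simulated. CPM are after TMM. Alternatives were DESeq2 1.42.0 (Wald test and size factors), no filter, an offset for effective length, removal of each library's GC trend, fits of the 8 libraries compared, the replicate number as a block, and each library left out.

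The genes named are the 6 PA-TM-RING members in each comparison, the called members with the largest log2 fold changes (up to 10 in each direction against GFP and 5 between constructs), and the 5 with the highest TPM in GFP. The values of 1 tested member are not reported here and not plotted, and it stays in the counts over members. The members and lists were chosen with earlier results of these data known. Pseudogenes RNF216P1 (854.7 counts on average) and RNF2P1 (22.93) share sequence with RNF216 and RNF2, whose values are uncertain. Protein sequences were not used here.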

Additional observations from a re-analysis of the deposited data

Results flagged for a closer look

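In groups of 4 libraries, the CPM of 38 named genes were checked for a library far from the other 3 by Dixon's test (152 groups). Of these 10 held one, where chance gives about 1 in 20 groups, and 6 of the 10 were R117fs replicate 4. In that library RNF152 was low at 7.09 CPM (the other 3 at 11.2 to 11.8) and RNF217 at 25.8 (43.3 to 43.7). RNF165 was high at 13.1 CPM (9.53 to 9.91), RNF166 at 59.5 (39.0 to 41.8), RNF181 at 46.7 (34.5 to 35.5) and RNF40 at 431 (323 to 337). The part of its GC trend in these values was not tested. The other 4 lay in G659fs. RNF126 was low in replicate 3 at 114 CPM (123 to 124) and RNF151 in replicate 4 at 0.102 (0.209 to 0.23). RNF20 was high in replicate 1 at 63.7 CPM (56.2 to 56.6) and RNF31 in replicate 4 at 33.5 (31.9 to 32.1).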

How the results depend on the processing

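Of 58 calls of named genes, 17 held under every alternative that gave an adjusted p and 41 were lost or turned under at least 1, most with the length offset (24 lost), the 8 libraries alone (21 lost) or a library left out. The 17 include RNF151 with WT and with R117fs, which entered the test only through its GFP libraries. DESeq2's Wald test kept 56 of the 58 and lost 1, and it gave no adjusted p for the remaining call. Of the 35 results of named genes that were not called, 12 passed with the GC trend removed, 7 with the 8 libraries alone, 5 by DESeq2's Wald test, 2 with the length offset and 1 with the block (RNF149 in R117fs against GFP, -0.208 with edgeR adjusted p = 0.0387). All 35 are of PA-TM-RING genes, because only these 6 genes were named whether called or not. Uncalled results of other members were not followed. No alternative shifted the median of all genes by over 0.1. The labels do not say that a replicate number marks a shared origin, so the numbers were not taken as pairs: deviations of same-numbered libraries correlated over 0.1 in 5 of 24 pairs (-0.0619 to 0.16). All 6 pairs of replicate 1 were positive (0.0518 to 0.16) and 8 of 16 libraries correlated best with their own number of the 4, a hint of pairing from the data and not from the design. With the replicate block the counts of called members were 13, 16 and 21 for WT, R117fs and G659fs against GFP and 7, 4 and 14 for R117fs and G659fs against WT and G659fs against R117fs (23.5%, 17.3%, 27.2%, 11%, 8% and 16.3% of all genes). The counts in the same order were 22, 24, 38, 11, 15 and 20 after removal of the GC trend (38%, 27.8%, 40.5%, 17.7%, 20% and 29.1% of all genes) and 17, 2, 37, 0, 23 and 5 in fits of the 8 libraries compared (36.3%, 3.67%, 43.1%, 0.938%, 28.5% and 4.86% of all genes). With the length offset G659fs against GFP gave 11 (20.8% of all genes), R117fs against WT 2 (5.09%) and G659fs against WT 1 (2.61%). DESeq2's Wald test gave 8 for R117fs against WT (12.1% of all genes), and no filter gave 2 for G659fs against WT (2.14%). Leaving out 1 library gave 8 to 21, 9 to 16, 12 to 38, 0 to 9, 0 to 15 and 9 to 16. For WT and G659fs against GFP, the fits with the lowest and highest of these counts are given above with the share of all genes. That share moved in the same direction.

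For membrane RING ligases with other names (1, 4 and 3 called), WT gave 5 with the GC trend removed, 0 without the filter, 3 with the 8 libraries and 0 with the block. R117fs gave 7 by DESeq2's Wald test, 7, 2 and 1 with the GC trend removed, the length offset and the 8 libraries, and G659fs 9, 1 and 10; leaving out 1 library gave 0 to 4, 1 to 6 and 1 to 10. For E1 and E2 enzymes (6, 7 and 5), WT gave 12 with the GC trend removed, 3 without the filter and 10 with the 8 libraries, R117fs 4 with the length offset and 1 with the 8 libraries, and G659fs 12 both after removal of the GC trend and in the 8-library fit. Leaving out 1 library gave 2 to 12, 4 to 9 and 4 to 11. For the counts named here with the GC trend removed and in the 8-library fits, the share of all genes called, given above, moved in the same direction.

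Signs turned for small values. With the GC trend removed RNF128 was at 0.0379 in R117fs against GFP and 0.00144 against WT. RNF167 in G659fs against WT was at 0.000818 by DESeq2's Wald test, 0.00051 with its size factors and 0.00698 without the filter. With the length offset RNF130, RNF150 and RNF217 in G659fs against R117fs were at 0.0147, -0.0128 and -0.02, the last the only call that turned. Leaving out 1 library turned RNF128 in R117fs against GFP (-0.121 to 0.0468), against WT (-0.16 to 0.00575) and in WT against GFP (-0.0127 to 0.0894), RNF13 in R117fs against WT (-0.0374 to 0.0743), RNF130 in G659fs against R117fs (-0.0683 to 0.00094) and WT against GFP (-0.0305 to 0.0187), RNF149 in WT against GFP (-0.0455 to 0.0036), RNF150 in R117fs against WT (-0.0116 to 0.118) and RNF167 in G659fs against WT (-0.0319 to 0.0223). The cause of these moves was not tested. Depth limits RNF151 and RNF183, at under 1 CPM.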
